A study of Homo sapiens with 8 samples.

Results

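The genes described here belong to families of pre-mRNA splicing factors and were chosen by name. They are the autosomal protein-coding genes whose symbols start with SRSF, HNRNP, SF3A, SF3B, U2AF or PRPF. The rule found 61 members among 19229 autosomal protein-coding genes, namely 12 SRSF, 24 HNRNP, 3 SF3A, 6 SF3B, 3 U2AF and 13 PRPF genes. HNRNPH2 was left out because it does not lie on an autosome. HNRNPUL2-BSCL2 is a readthrough gene whose only promoter is that of HNRNPUL2, so the members stand for 60 separate sets of promoters. Each member was scored by the intervals of G4 ChIP-seq that shared at least 1 bp with the 1 kb either side of any of its transcription start sites (TSSs).

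G4 ChIP-seq was carried out in K562 cells, a human chronic myelogenous leukemia line, and in HepG2 cells, a human hepatocellular carcinoma line, with no treatment named for either. Chromatin fixed with formaldehyde and treated with RNase A was precipitated with BG4, an antibody to folded G-quadruplexes (G4s), and the sample list holds 3 G4 libraries and 1 input library per line. The authors deposited merged intervals and not values per library: a high-confidence list that required a peak in 5 or more of 8 K562 replicates (9205 intervals) or 6 or more of 9 HepG2 replicates (8805), and a lower-confidence list that required 2 replicates (19249 and 28387). Per the paper, each line had 3 independent experiments with 2 to 3 technical replicates apiece, so 2 replicates may come from 1 experiment. An interval has a position and a width but no height, so depth and the spread between replicates are unknown, no test between the lines was possible, and the 95% Wilson intervals below cover counting error over genes or intervals only. As a check of the labels, 5 of 12 erythroid marker genes had a high-confidence interval in K562 and 2 did in HepG2, while 7 of 12 hepatic marker genes had one in HepG2 and 1 did in K562. Over all autosomal protein-coding genes the shares were 36.7% in K562 and 32.0% in HepG2. The erythroid count in K562 lay near that share and is a weak check. GFI1B and EPOR were the erythroid markers called in both lines.

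A G4 is a stack of planar guanine tetrads that a G-rich strand can form when runs of G lie close together, and such sequence is common just upstream of active promoters. Splicing removes introns in the spliceosome, a machine of small nuclear ribonucleoproteins (snRNPs) and proteins. SR proteins (SRSF genes) mostly promote the use of nearby splice sites, whereas hnRNPs (HNRNP genes) coat nascent RNA and often repress them. The U2AF, SF3A and SF3B proteins recognise the 3′ splice site and the branch point, and the PRPF proteins act in the later snRNPs and in the catalytic steps.

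Sequences at the members showed both what a G4 interval with a canonical motif looks like and what one without it looks like. A G4 motif was taken as 4 runs of at least 3 G separated by loops of 1 to 7 bases, searched on both strands. HNRNPF carried the most motifs in K562 and HNRNPL and U2AF2 in HepG2, HNRNPR had the widest K562 interval, HNRNPC was high-confidence in HepG2 alone, and HNRNPA2B1 and SRSF9 held motifs in high-confidence intervals of K562 alone and of both lines, respectively. They are printed 5′ to 3′ on the strand that holds the motif, with hg19 coordinates and the strand relative to the gene, and capitals mark the runs of at least 3 G.
HNRNPF template strand, chr10:43904809-43904826: GGGaGGGGaGGGGaGGGG
HNRNPF template strand, chr10:43892336-43892354: GGGaGGGGGaGGGGaGGGG
HNRNPL coding strand, chr19:39342683-39342702: GGGGGcGGGGaGGGGaGGGG
HNRNPL coding strand, chr19:39340656-39340678: GGGtGGGGGcggcGGGtgacGGG
U2AF2 coding strand, chr19:56166276-56166290: GGGcGGGcGGGcGGG
U2AF2 coding strand, chr19:56166307-56166323: GGGcGGGGcGGGGaGGG
HNRNPR coding strand, chr1:23671249-23671280: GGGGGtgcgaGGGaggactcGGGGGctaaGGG
HNRNPC template strand, chr14:21737994-21738017: GGGGGcGGGGaaaGGGttgaGGGG
HNRNPA2B1 coding strand, chr7:26241210-26241234: GGGaattGGGGccctaGGGGGaGGG
SRSF9 template strand, chr12:120933848-120933871: GGGGcGGGGccggcGGGagcaGGG

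Most member intervals held no such motif. The stretches below are parts of such intervals outside UTRs, printed on the coding strand, with capitals on runs of at least 3 G or 3 C. SRSF11 and HNRNPUL1 had the largest overlap between the lines, and PRPF38B was high-confidence in K562 with no HepG2 interval. The SRSF11 stretch has 4 G runs and 1 C run, the HNRNPUL1 stretch 1 G run and 4 C runs, and the PRPF38B stretch 3 G runs and 2 C runs. The runs of the first 2 stretches lie too far apart for the motif, and the PRPF38B stretch has fewer than 4 runs on either strand.
SRSF11 in both lines, chr1:70671268-70671364: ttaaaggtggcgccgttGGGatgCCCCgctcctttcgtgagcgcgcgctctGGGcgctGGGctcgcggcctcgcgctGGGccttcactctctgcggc
HNRNPUL1 in both lines, chr19:41770116-41770235: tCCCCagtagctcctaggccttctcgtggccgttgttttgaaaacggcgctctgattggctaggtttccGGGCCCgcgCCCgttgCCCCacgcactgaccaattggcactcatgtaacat
PRPF38B in K562, chr1:109234813-109234931: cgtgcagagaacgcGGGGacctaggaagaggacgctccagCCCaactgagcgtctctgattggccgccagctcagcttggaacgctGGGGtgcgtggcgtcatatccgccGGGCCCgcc

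Endogenous G4s were frequent at splicing factor promoters in both lines. A high-confidence interval lay within 1 kb of a TSS of 40 of the 61 members in K562 (65.6%, 95% Wilson interval 53.0 to 76.3), against 36.7% of all autosomal protein-coding genes. In HepG2 the count was 46 members (75.4%, 63.3 to 84.5), against 32.0% of all genes. A high-confidence interval in both lines was found at 37 members (60.7%, 48.1 to 71.9), against 25.3% of all genes. With the lower-confidence lists, 54 members had an interval in K562 (background 51.3%) and 53 in HepG2 (background 52.9%). The background takes in all genes, whether or not their promoters are open, and the paper found most G4s in open chromatin. A comparison with open promoters alone was not made.

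**Figure D1:**
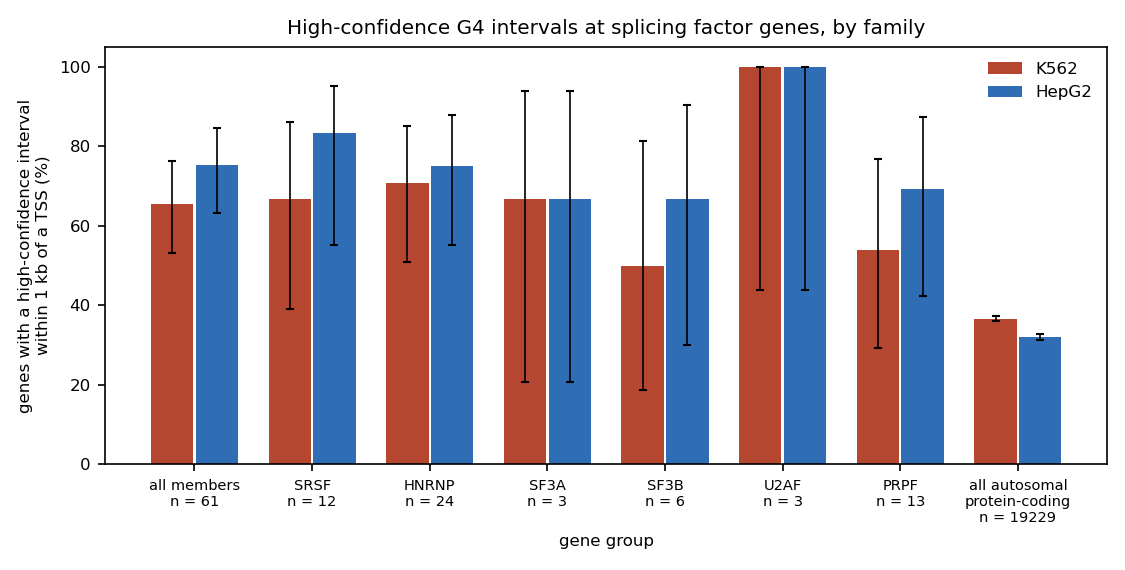
Percent of genes with a high-confidence G4 interval within 1 kb of a TSS (y axis) for all 61 members, each family and all 19229 autosomal protein-coding genes (x axis), in K562 and HepG2; error bars are 95% Wilson intervals. Members stand at 65.6% and 75.4%, all genes at 36.7% and 32.0%, and the families of 3 genes have intervals too wide to order.

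Members have more annotated TSSs than other genes, with a median of 8 (range 1 to 59) against 5 over all genes, and so a wider search window, with a median of 6950 bp against 4688 bp. With only the canonical TSS of each gene, 39 members had a high-confidence interval in K562 (background 34.1%) and 45 in HepG2 (background 29.3%). SRSF11 was the member lost in both lines, since its high-confidence interval lies at an alternative start far upstream. Among genes with 5 to 9 TSSs, 15 of 21 members were high-confidence in K562 (71.4%, all genes 42.6%) and 16 in HepG2 (76.2%, all genes 37.2%). Among genes with at least 20 TSSs, 4 of 8 members were high-confidence in K562 (all genes 58.5%) and 6 of 8 in HepG2 (all genes 52.4%).

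The SRSF genes were mostly occupied in both lines. SRSF2, SRSF3, SRSF4, SRSF5, SRSF6, SRSF9, SRSF10 and SRSF11 had high-confidence intervals in K562 and HepG2, which makes 8 of 12. SRSF1, the founding SR protein, and SRSF7, an SR protein with a zinc knuckle, were high-confidence in HepG2 and lower-confidence in K562. SRSF8 had lower-confidence intervals only, 170 bp wide in K562 and 98 bp wide in HepG2, at different places. SRSF12 had no interval, although 1 motif lies in its TSS windows.

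SRSF2 and SRSF9 had the most high-confidence intervals in the family, with 2 per line each. At SRSF2, whose promoter is shared with MFSD11, K562 intervals of 291 bp and 125 bp lay at -156 and -692 bp, and HepG2 intervals of 329 bp and 232 bp at -172 and -636 bp, where a negative position is upstream of the nearest TSS. Neither line had a motif there, with 12 G runs on the coding strand of the 291 bp interval. At SRSF9, intervals of 235 bp in K562 and 180 bp in HepG2 lay at -60 and -53 bp from the canonical TSS. A further interval in each line, of 241 bp and 188 bp, lay at an alternative start -26286 and -26263 bp from the canonical TSS. It held the template-strand motif shown above. DYNLL1 has a TSS within 1 kb of the intervals at both places.

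SRSF11, SRSF5 and SRSF6 marked the extremes of agreement between the lines. At SRSF11 the K562 interval of 133 bp (chr1:70671267-70671399) and the HepG2 interval of 125 bp (chr1:70671268-70671392) shared 125 bp, 94.0% of the bases covered by either. This interval is also within 1 kb of a TSS of LRRC40, and it lies at -15730 bp from the canonical SRSF11 start. At that canonical start SRSF11 had lower-confidence intervals only, 233 bp wide in K562 and 198 bp in HepG2.

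At SRSF5 the high-confidence interval lay at different TSSs in the lines. The K562 interval (chr14:70234470-70234590, 121 bp) was 671 bp downstream of the canonical start, in an exon of a noncoding transcript, and the HepG2 interval (chr14:70233716-70233818, 103 bp) was at -92 bp, with 763 bp between their centres. At SRSF6 the K562 interval (chr20:42086979-42087064, 86 bp) lay in a coding exon and the HepG2 interval (chr20:42086425-42086513, 89 bp) at -64 bp, 552 bp apart. At both genes each high-confidence interval overlapped a lower-confidence interval of the other line, so both places were called in at least 2 replicates of each line. In the line with the lower-confidence call, these may be technical replicates of a single experiment.

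**Figure D2:**
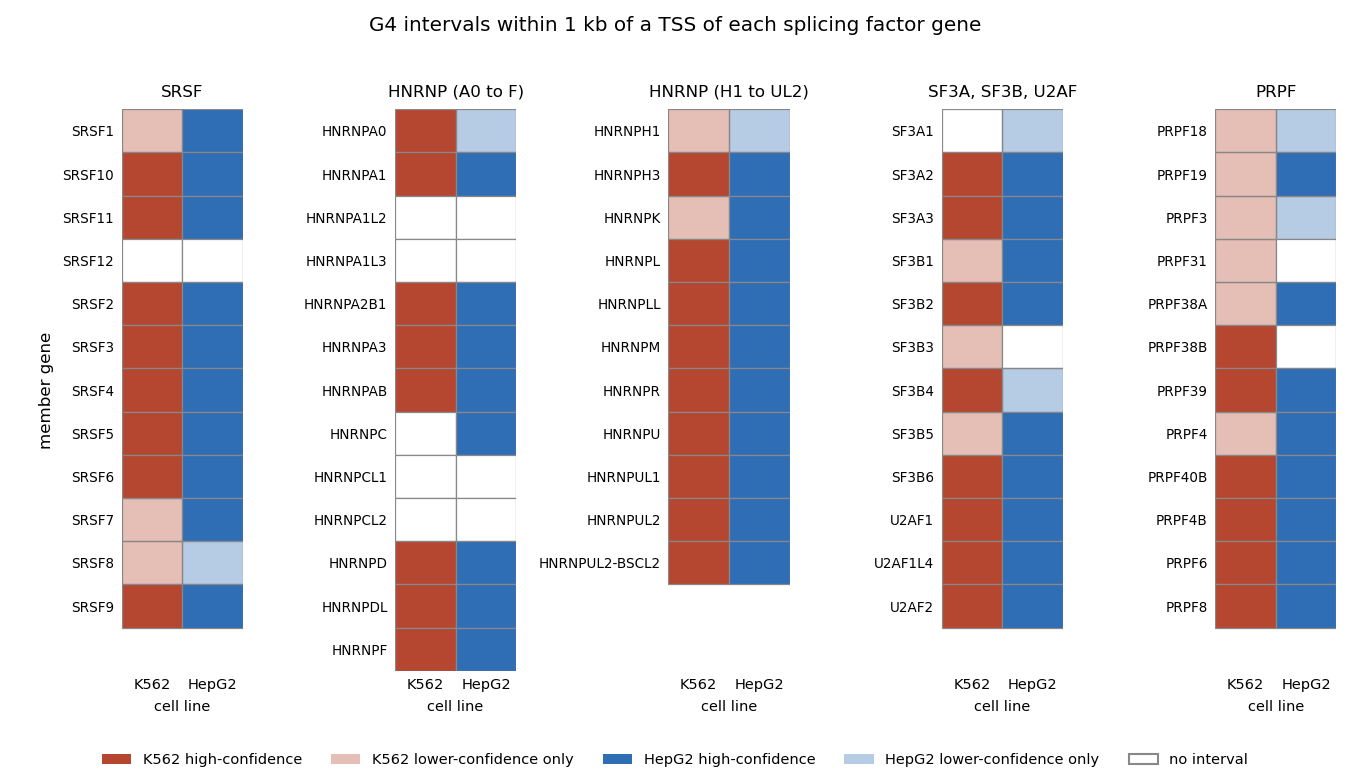
Status of 60 of the 61 members (rows, grouped by family) in K562 and HepG2 (columns): full colour is a high-confidence interval within 1 kb of a TSS, pale colour a lower-confidence interval only, white none. In 36 of those drawn both cells are full, and in 5 both are white.

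Of the 24 HNRNP genes, 16 were high-confidence in both lines: HNRNPA1, HNRNPA2B1, HNRNPA3, HNRNPAB, HNRNPD, HNRNPDL, HNRNPF, HNRNPH3, HNRNPL, HNRNPLL, HNRNPM, HNRNPR, HNRNPU, HNRNPUL1, HNRNPUL2 and HNRNPUL2-BSCL2. HNRNPA0 was high-confidence in K562 and lower-confidence in HepG2. HNRNPK, a binder of C-rich RNA, was the reverse. HNRNPH1, a binder of G runs in RNA, had only lower-confidence intervals, 2 in K562 and 4 in HepG2. HNRNPC was high-confidence in HepG2 without a K562 interval.

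HNRNPC, which binds uridine tracts, was the only member of that kind (1 of 61, 1.64%; background 2.54%). Its HepG2 interval (chr14:21737723-21738050) was 328 bp wide, centred at -233 bp and outside the gene, with a GC content of 55.8% and the template-strand motif shown above. The HepG2 lower-confidence interval around it spanned 511 bp. No K562 interval of either list lay within 500 bp of it.

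HNRNPF, another binder of G runs in RNA, was the richest in motifs. It had 4 K562 intervals of 203 to 317 bp, covering 1054 bp and 5 motifs, of which 4 were on the template strand. Its 3 HepG2 intervals, of 69 to 144 bp, covered 314 bp and held none. Of the HepG2 bases 93.9% lay within K562 intervals, whereas 28.0% of the K562 bases lay within HepG2 intervals. The K562 intervals sat at 2 groups of starts about the canonical TSS and inside the gene, at -130, 271, 11899 and 12291 bp from that TSS.

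HNRNPL, a binder of CA repeats, had the most intervals of all members, 4 in each line. They covered 984 bp in K562 and 982 bp in HepG2, with 772 bp in common. K562 positions were -71, 513 and -560 bp from the canonical TSS, and -2032 bp, the last near an alternative start. Each line had 2 motifs there, both on the coding strand, as printed above.

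HNRNPR and HNRNPUL1, which regulate splicing as RNA-binding hnRNPs, and HNRNPD, which binds AU-rich elements in RNA, stood out by width or overlap. The K562 interval of HNRNPR (chr1:23670791-23671297, 507 bp, 15 coding-strand G runs) was the widest of the K562 intervals at members, and the HepG2 interval of 435 bp lay wholly inside it, for 85.8% of the union. The motif of the K562 interval ran past the edge of the HepG2 interval. At HNRNPUL1 the intervals of 181 bp in K562 and 162 bp in HepG2 had centres 1 bp apart and shared 89.5% of the union. HNRNPD had a HepG2 interval of 456 bp (chr4:83295209-83295664) that contained the K562 interval of 280 bp.

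The high-confidence intervals of HNRNPA2B1 lay at different places in the lines. The K562 interval (chr7:26241009-26241383, 375 bp, 76.8% GC, 2 coding-strand motifs) and the HepG2 interval (chr7:26240522-26240587, 66 bp, 53.0% GC, no motif) were 642 bp apart at their centres with a gap of 421 bp. Each overlapped a lower-confidence interval of the other line, and the HepG2 one of 181 bp at the K562 place held 1 motif. CBX3 has a TSS within 1 kb of both. HNRNPU, also called scaffold attachment factor A, had 2 intervals per line, the one inside the gene holding 3 motifs in K562 (360 bp) and none in HepG2 (195 bp). HNRNPA1 had a single K562 high-confidence interval of 44 bp, the narrowest in that list at members, against 3 of 49 to 137 bp in HepG2, all near CBX5.

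The members without any interval in the 4 lists were SRSF12, HNRNPA1L2, HNRNPA1L3, HNRNPCL1 and HNRNPCL2, 5 of 61 (8.20%; background 39.6%). The last 4 are copies of HNRNPA1 and HNRNPC. Their canonical windows had GC contents of 43.1 to 45.2% and no motif, against a median of 57.3% over the members. The windows of HNRNPCL1 and HNRNPCL2 were 93.3% identical, so reads there may not map to a single place. Leaving out HNRNPUL2 and HNRNPUL2-BSCL2, whose windows overlap on the genome, no other pair of member windows was above 52.9% identity.

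The U2AF genes, whose products bind the polypyrimidine tract and the 3′ splice site, were high-confidence in both lines at all 3 members. At U2AF2, the large subunit, K562 intervals of 87 bp and 213 bp and HepG2 intervals of 116 bp and 91 bp lay in UTRs, and the second of each held the 2 motifs printed above. At U2AF1, the small subunit, the K562 interval of 276 bp had 1 motif, while the HepG2 interval was only 23 bp wide and lay within it. U2AF1L4 had intervals of 159 bp and 155 bp that shared 138 bp, beside PSENEN.

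In the SF3A complex, SF3A2 and SF3A3 were high-confidence in both lines and SF3A1 was lower-confidence in HepG2 with no K562 interval (1 of 61, background 6.54%). SF3A2 had 2 intervals per line, covering 370 bp in K562 and 213 bp in HepG2, with 153 bp in common and with PLEKHJ1 as neighbour. In the SF3B complex, SF3B2 and SF3B6 were high-confidence in both lines. SF3B1, which holds the branch point, and SF3B5 were high-confidence in HepG2 and lower-confidence in K562. SF3B4 was high-confidence in K562 and lower-confidence in HepG2, and SF3B3 was lower-confidence in K562 with no HepG2 interval.

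SF3B6, the protein that contacts the branch point adenosine, had a HepG2 interval of 456 bp (chr2:24299214-24299669), as wide as that of HNRNPD and the widest HepG2 width among members. Its K562 interval spanned 502 bp, with 401 bp in common. Neither held a motif, although the template strand had 35 G runs in K562 and 27 in HepG2. FAM228B has a TSS within 1 kb of these intervals. SF3B2 had intervals of 415 bp and 316 bp, the second inside the first.

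Among the PRPF genes, PRPF6, PRPF8, PRPF39, PRPF40B and PRPF4B were high-confidence in both lines. PRPF8 is the scaffold protein at the centre of the spliceosome, PRPF6 bridges the snRNPs of the tri-snRNP, and PRPF4B is a kinase. PRPF4 of the same particle, PRPF38A and the ubiquitin ligase PRPF19 were high-confidence in HepG2 and lower-confidence in K562. PRPF3 and PRPF18, a factor of the second catalytic step, were lower-confidence in both lines, and PRPF31, a protein of the U4/U6 snRNP, was lower-confidence in K562 alone.

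PRPF38B was the only member with a high-confidence interval in K562 and none in HepG2 (1 of 61, 1.64%; background 3.15%). The interval (chr1:109234813-109234952) was 140 bp wide, centred at -50 bp from the canonical TSS and outside the gene, with 65.0% GC and no motif. The K562 lower-confidence interval around it was 193 bp wide. PRPF40B had a K562 interval of 441 bp with 80.3% GC and 2 motifs, at -90 bp from its canonical TSS. A HepG2 interval of 42 bp inside it held none, but the HepG2 lower-confidence interval of 334 bp there held 2. The other HepG2 interval, of 86 bp, lay 18999 bp downstream of that TSS. It held no motif and overlapped no K562 interval.

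Between the lines, the members that were high-confidence in only 1 of them were mostly HepG2 members. In HepG2 and not in K562 there were 9 members, and in K562 and not in HepG2 there were 3, so 75% of these 12 were HepG2 members (95% Wilson interval 46.8 to 91.1). Over all genes the balance went the other way, with 1300 HepG2 and 2191 K562 genes (37.2% HepG2, 35.6 to 38.9). The number of members with a high-confidence interval was thus 6 higher in HepG2, whereas the same difference over all genes was -891. Both differences changed sign with the lower-confidence lists, to -1 for the members (53 in HepG2 and 54 in K562) and to 303 for all genes (10167 and 9864). This balance was not tested, because each line has a single merged list per threshold and the lists required different shares of replicates.

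Of the 9 HepG2 members, 8 had a lower-confidence K562 interval: SRSF1, SRSF7, HNRNPK, SF3B1, SF3B5, PRPF19, PRPF38A and PRPF4 (13.1%; background 4.22%). Of the 3 K562 members, HNRNPA0 and SF3B4 had a lower-confidence HepG2 interval (3.28%; background 8.24%). In all these genes each high-confidence interval overlapped a lower-confidence interval of the other line, so the same place was called there in at least 2 replicates. These may be technical replicates of a single experiment. SRSF8, HNRNPH1, PRPF3 and PRPF18 were lower-confidence in both (6.56%; background 6.05%), and SF3B3 and PRPF31 were lower-confidence in K562 with no HepG2 interval (3.28%; background 4.35%).

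The chromosomes of these 12 members differed in how many high-confidence intervals each line had in all. SRSF1, SRSF7, SF3B1 and HNRNPC lie on chromosomes 2, 14 and 17, where HepG2 had more intervals than K562, with 339 against 179 on chromosome 14. The other 5 HepG2 members lie on chromosomes where HepG2 had fewer, from 491 against 497 on chromosome 6 to 812 against 1117 on chromosome 1. On chromosome 9, with HNRNPK and PRPF4, the totals were 360 against 383. HNRNPA0, SF3B4 and PRPF38B also lie on chromosomes where HepG2 had fewer. The part of these totals in the balance was not tested.

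**Figure D3:**
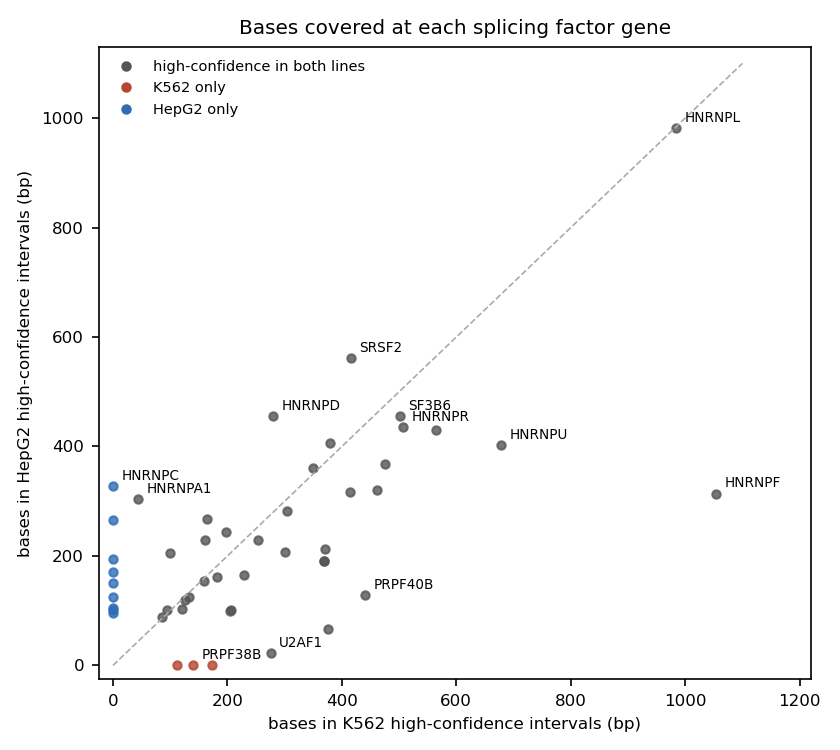
Bases in K562 (x axis) and HepG2 (y axis) high-confidence intervals within 1 kb of a TSS, 1 point per member with an interval in either line; the dashed line marks equal cover. Points for 26 members lie below the line and 11 above it among those covered in both lines, with HNRNPF (1054 bp and 314 bp) the farthest below.

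Where both lines had a high-confidence interval, they mostly marked the same place. At 34 of the 37 members (91.9%) the intervals shared bases, against 96.7% of 4861 genes of that kind, the exceptions being SRSF5, SRSF6 and HNRNPA2B1. The members' K562 intervals covered 12331 bp and the HepG2 intervals 9808 bp, with 7733 bp in common, which is 62.7% of the K562 bases and 78.8% of the HepG2 bases. Over all genes the shares were 68.4% and 78.4%. The nearest centres were a median of 19 bp apart, and within 50 bp at 30 members. K562 covered more bases than HepG2 at 26 of the 37 (70.3%, all genes 62.1%).

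The intervals lay just upstream of the TSSs. The median position of the 54 pairs of a member and a K562 interval was -68 bp (95% order-statistic interval -88 to -50 bp), with 88.9% upstream, against -59 bp and 79.9% over all genes. For the 62 HepG2 pairs it was -90.5 bp (-105 to -43 bp), with 80.6% upstream, against -71 bp and 79.5%. The K562 interval centres ranged from -692 bp at SRSF2 to 316 bp at U2AF2, and the HepG2 ones from -636 bp at SRSF2 to 333 bp at HNRNPL. The centre lay outside the gene body for 26 K562 and 34 HepG2 pairs, in an intron for 11 and 9, in a UTR for 10 and 13, in an exon of a noncoding transcript for 4 and 5, and in a coding exon for 3 and 1. With respect to the canonical TSS, 8 members had an interval centred more than 1 kb away. Neither this count nor the split by place was made over all genes, and members have more annotated TSSs than other genes.

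Another protein-coding gene had a TSS within 1 kb of a high-confidence interval at 20 of the 49 members with such an interval in either line (40.8%), against 32.6% of 8352 genes. There an interval cannot be assigned to 1 of the genes. Among the members not yet named with a neighbour, these include SRSF1 and SRSF6 (a gene without a symbol in each case), SRSF7 (GEMIN6), HNRNPDL (ENOPH1), HNRNPH3 (PBLD), HNRNPK (RMI1), HNRNPUL2 (TTC9C), PRPF38A (ORC1), PRPF4 (CDC26) and PRPF6 (SAMD10).

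**Figure D4:**
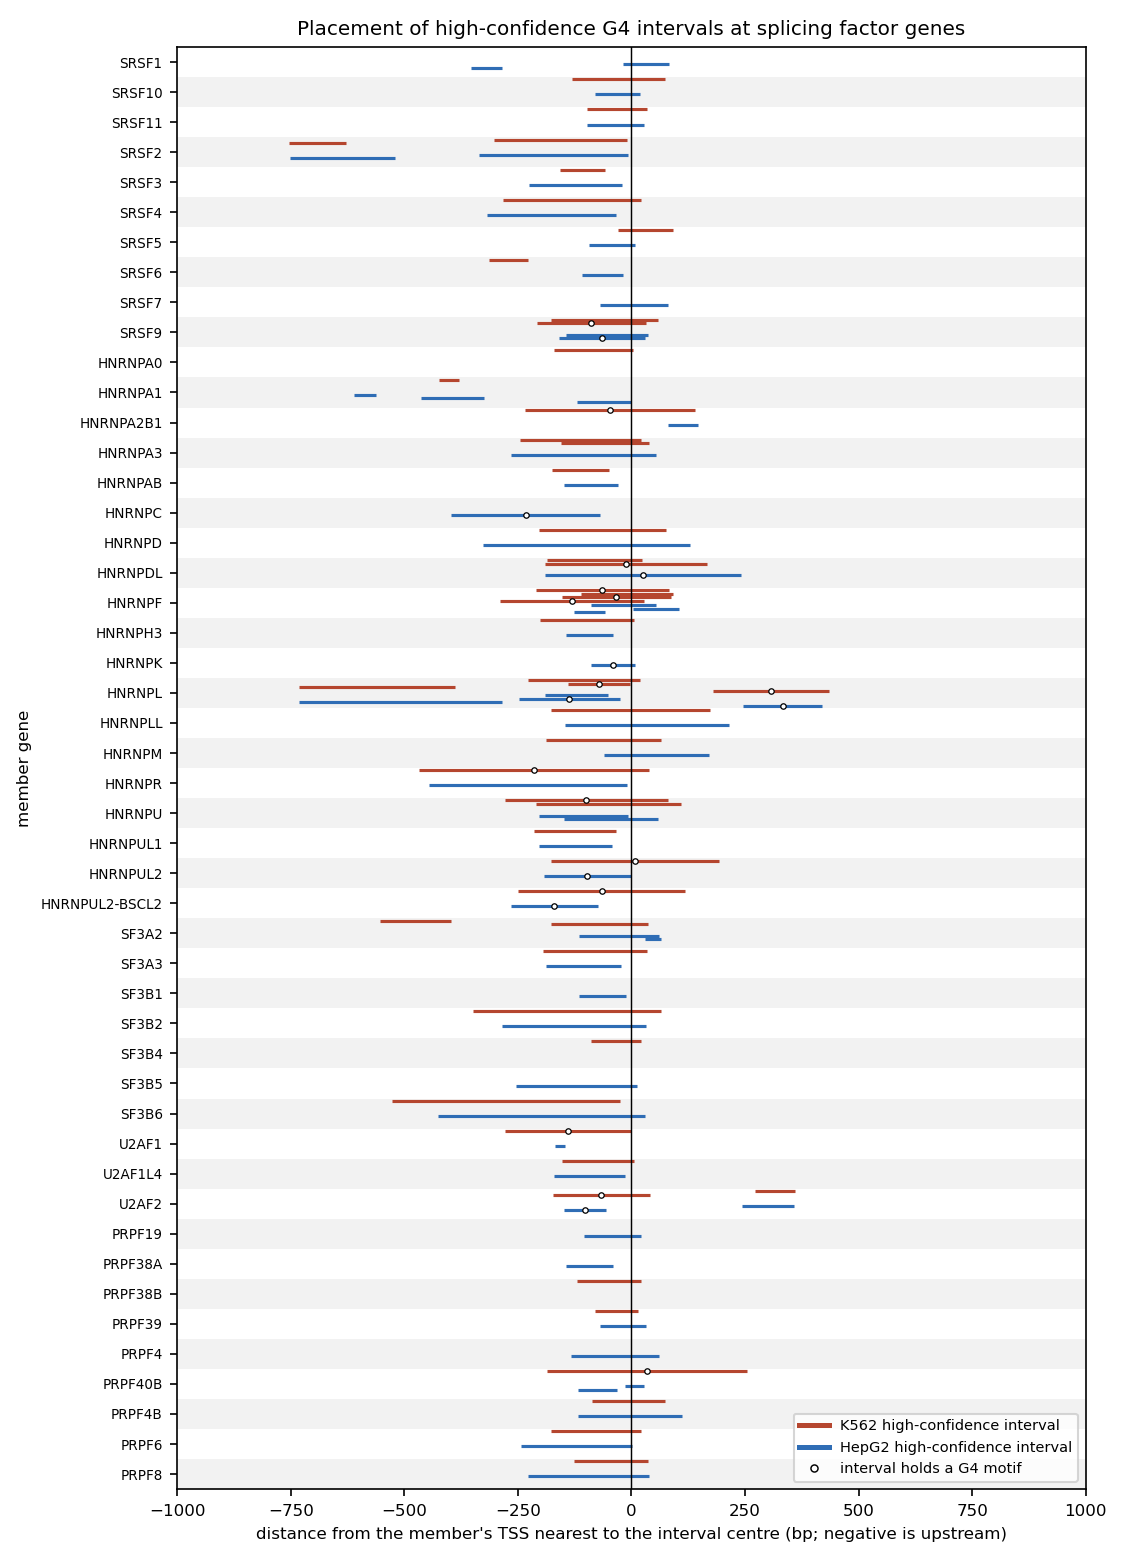
High-confidence intervals of 48 of the 49 members with one (rows) drawn as bars at their width, by distance of the centre from the member's nearest TSS (x axis, bp, negative is upstream), K562 above HepG2 in each row; circles mark intervals with a G4 motif. Bars at different TSSs of a gene are drawn on the same axis, and most centres lie just upstream of 0 (medians -68 and -90.5 bp).

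Only a minority of these intervals held a motif. In K562 14 of 53 separate intervals did (26.4%, Wilson interval 16.4 to 39.6), against 35.0% of 7242 intervals at all genes. In HepG2 8 of 61 did (13.1%, 6.80 to 23.8), against 1502 of 6000 at all genes. The HepG2 share was 22.95% (all genes 35.6%) with intervals extended by 50 bp on each side and 20.9% (all genes 27.5%) in the lower-confidence list. With runs of at least 2 G the shares were 88.7% in K562 and 90.2% in HepG2, against 91.1% and 85.8% at all genes. The motif was on the coding strand alone in 10 K562 intervals, on the template strand alone in 3 and on both in 1, and in HepG2 in 5, 3 and 0. For intervals at all genes whose genes lie on the same strand, the split was 1110, 892 and 233 in K562 and 630, 570 and 91 in HepG2. The members' split took the strand from the member genes only, without leaving out intervals shared with a neighbour on the other strand. The sets are thus not alike.

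Motifs lay in a high-confidence interval of 14 members, in both lines at 6 of them. These 6 were SRSF9, HNRNPDL, HNRNPL, HNRNPUL2, HNRNPUL2-BSCL2 and U2AF2, with the motif in common. In high-confidence intervals of K562 alone they were HNRNPA2B1, HNRNPF, HNRNPR, HNRNPU, U2AF1 and PRPF40B, and in HepG2 alone HNRNPC and HNRNPK. Except at HNRNPC, each of these genes also had a motif in a lower-confidence interval of the other line, so the split holds for the high-confidence lists alone. In the windows the motif was common: 38 of the 61 canonical windows held it (62.3%, 49.7 to 73.4), against 68.7% of 18978 genes. Of the 38, 27 were high-confidence in K562 and 32 in HepG2, and of the 23 windows without it 12 and 13 were. Over all genes 40.8% in K562 and 33.3% in HepG2 were high-confidence with a motif in the window, and 19.4% and 20.5% without. At 24 members with a high-confidence interval, a motif was in the windows but outside those intervals, and 11 had none in any window. These counts, and those of members with a motif in an interval, were not made over all genes. Whether they are usual for genes with an interval is thus unknown.

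Wider K562 intervals at members held a motif more often, while the HepG2 shares showed no order by width. Members' intervals had a median width of 215 bp in K562 and 155 bp in HepG2, against 204 bp and 182 bp over all genes, and a median GC content of 69.9% and 66.4%, against 71.2% and 67.6%. In K562 7 of 13 intervals of at least 300 bp held a motif (53.8%, all genes 923 of 1538), 6 of 19 from 200 bp to under 300 bp did (31.6%, all genes 40.9%) and 1 of 17 from 100 bp to under 200 bp did (5.88%, all genes 24.8%). In HepG2 2 of 10 of at least 300 bp held one (all genes 46.5%), 1 of 11 from 200 bp to under 300 bp (9.09%, all genes 33.2%), 3 of 27 from 100 bp to under 200 bp (11.1%, all genes 18.3%) and 2 of 13 under 100 bp (15.4%, all genes 7.01%). The part of width in the difference between the lines was not tested.

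**Figure D5:**
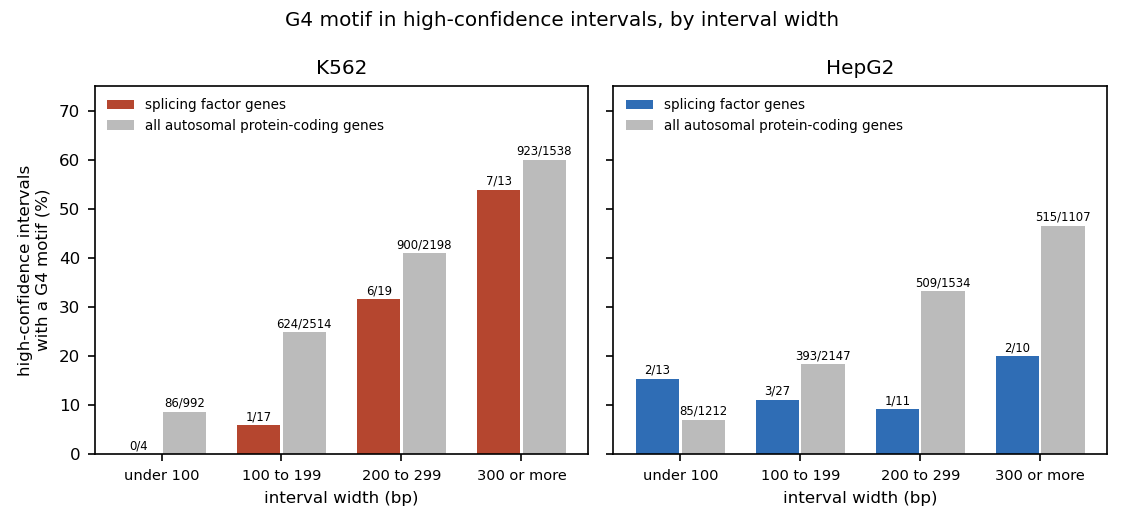
Percent of high-confidence intervals with a G4 motif (y axis) by interval width in bp (x axis), for K562 and HepG2, at splicing factor genes (colour) and at all autosomal protein-coding genes (grey); numbers above bars are intervals with a motif of all in the class. The K562 member share goes from 0 of 4 under 100 bp to 7 of 13 at 300 bp or more, and classes at members hold 4 to 27 intervals.

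The other genes of the splicing machinery were counted from 7 lists with 119 autosomal genes. High-confidence intervals were found at 73 in K562 (61.3%), at 76 in HepG2 (63.9%) and at 57 in both (47.9%), and 9 had none in any list. Over all autosomal protein-coding genes these shares were 36.7%, 32.0%, 25.3% and 39.6%, in that order. The helicases of splicing had 4 of 9 in K562 and 8 of 9 in HepG2, and the SR-related proteins and kinases had 14 of 16 and 10 of 16. Of the proteins of the Prp19-associated complex and the catalytic steps, 5 of 17 were high-confidence in each line (29.4%) and 2 in both (11.8%). These high-confidence shares lay below those over all genes, though only slightly in HepG2. Of the same 17 genes, 2 had no interval in any list (11.8%), also below the share over all genes (39.6%). The Sm and LSm core had 9 and 11 of 15, the U1 and U2 snRNP proteins 11 and 11 of 15, the U5 and tri-snRNP proteins 9 and 11 of 13, and other splicing regulators 21 and 20 of 34.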

How the data were processed

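G4 ChIP-seq was available for K562 and HepG2 as 4 lists of intervals deposited by the authors, with hg19 positions in bp and no score, count or depth. Per the study's methods, the authors aligned the reads to hg19 with BWA, called peaks in each replicate with MACS2 (q-value below 0.05) and combined them by the number of replicates that share a stretch. Columns hold the start and end of pooled intervals, and each sample of a line shares its lists.

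TSSs came from GENCODE version 44 on GRCh37 (the study names version 19). Intervals sharing at least 1 bp with 1 kb either side of a TSS were assigned to a gene, and position is interval centre minus nearest TSS. Motifs were searched with Python 3.11.15, numpy 2.4.6, scipy 1.17.1 and pysam 0.24.0, on sequence indexed by samtools 1.23.1. The functions were tested on simulated intervals and sequences. Window identity was computed with edlib, and figures with matplotlib 3.10.9.

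Members and gene lists were chosen with earlier results of these data known. Every member was named with its status, except 1 that is not reported here by name but is part of all counts. Values were given for members high-confidence in 1 line without an interval in the other, with the widest interval, the most motifs, the largest and smallest overlap between lines, or the most intervals in their family. HNRNPA1, HNRNPU, U2AF1, U2AF1L4, SF3B2, PRPF40B and the stretches without a motif were added after their values were seen. Alternatives changed the window, the TSS set, the width minimum, the overlap rule, the list and the motif.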

Additional observations from a re-analysis of the deposited data

How the results depend on the processing

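The counts of members with a high-confidence interval in K562, in HepG2, in both and in a single line kept within 1.5 times their value under windows of 500 bp and 2 kb, upstream sequence only, other TSS sets, a width minimum of 50 bp and stricter overlap, and under the lower-confidence lists where these were used. HepG2 had 6 more members than K562 under each of these windows, TSS sets, width and overlap rules, but the difference turned to -1 with the lower-confidence lists, an alternative chosen after seeing the data. With 1 TSS per gene the median position was -94 bp in K562 and -120 bp in HepG2, since alternative starts no longer counted. Over all genes these medians were -86 bp and -107 bp. The motif share rose by construction with looser motifs. With loops of 1 to 12 bases it was 47.2% in K562 (all genes 51.1%) and 31.1% in HepG2 (all genes 39.8%). With runs of at least 2 G it was 88.7% and 90.2% (all genes 91.1% and 85.8%). With intervals extended by 50 bp it was 30.2% in K562 (all genes 46.0%) and 22.95% in HepG2 (all genes 35.6%). In the lower-confidence lists it was 24.1% in K562 (all genes 36.2%) and 20.9% in HepG2 (all genes 27.5%). The median overlap between the lines stayed between 61.4% and 66.2% of the union (all genes 61.2% to 64.3%). No paired analysis was possible because each line has a single merged list per threshold, and for the same reason no replicate could be left out. Depth is unknown, so a missing interval says only that too few replicates called a peak there.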

Other observations

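Some lower-confidence intervals at members lay inside the genes and were G-rich. At SRSF2 a K562 interval of 285 bp (chr17:74732561-74732845) lay in an intron, 710 bp from the canonical TSS, with 77.9% GC and 2 coding-strand motifs, and no HepG2 interval overlapped it. At SRSF4, another SR protein, a K562 interval of 346 bp (chr1:29507826-29508171) lay in an intron 414 bp from the canonical TSS, with 22 coding-strand G runs and 2 motifs, again with no HepG2 interval. At HNRNPH1 the lines shared a lower-confidence interval in an exon of a noncoding transcript, 134 bp wide in K562 and 125 bp in HepG2, with 1 coding-strand motif in each. At HNRNPF the high-confidence K562 intervals at the internal starts merged into a lower-confidence interval of 822 bp with 4 template-strand motifs.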
